A study of Mus musculus with 6 samples.

Results

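The proneural and neuronal bHLH genes described here are 9 genes taken by name from the 21887 protein-coding genes that RefSeq annotates on GRCm38: Neurog1, Neurog2, Neurog3, Neurod1, Neurod2, Neurod4, Neurod6, Atoh1 and Nhlh1. Chromatin was mapped in neurons of the dorsal root ganglion (DRG) of mouse embryos at E11.5, sorted by GFP from Runx3-BAC-GFP-CB6 transgenic mice and labelled TrkC proprioceptive neurons, the lineage that senses muscle stretch. The 6 samples are 2 replicates each of ATAC-seq, which maps open chromatin, of ChIP-seq for H3K27ac, an acetylated histone mark of active promoters and enhancers, and of input DNA. All 6 share the genotype, stage and sort, so every value below is from the GFP-positive cells alone, and the sort marks cells in which a Runx3 transgene, not TrkC itself, was active. Each assay is held as 1 consensus peak list without signal, so the depth is unknown, replicates cannot be set against each other, and the results are counts and positions of peaks with no test.

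bHLH proneural factors bind DNA as dimers with E proteins at the E-box CANNTG. In the DRG, Neurog2 and Neurog1 act in progenitors in successive waves of neurogenesis and switch on later factors such as Neurod1, Neurod4 and Nhlh1 in differentiating neurons. Neurod2 and Neurod6 are best known in the cerebral cortex, Neurog3 in endocrine cells of the pancreas, and Atoh1 in the dorsal spinal cord, cerebellar granule cells and hair cells.

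For each gene, peaks were counted "at the gene" (overlapping the gene span or the 1 kb on either side) and in its flanks, which reach to the neighbouring protein-coding genes and at most 100 kb. Both together are the region of the gene. An ATAC peak that overlapped an H3K27ac peak by at least 1 bp is called acetylated. A flank peak is assigned by position alone. No peak of the 9 regions lay within 1 kb of the facing end of a neighbouring gene.

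The E-box letters of 6 promoters are shown because these genes cover the range of patterns found: open with H3K27ac (Neurog1, Neurod1, Nhlh1), open without H3K27ac (Atoh1) and with neither mark (Neurod2, Neurog3). Each line holds the 250 bases before the transcript start, 5′ to 3′ on the gene's strand, from the RefSeq table of GRCm38.p6, which held all 9 genes. Capitals mark 3 E-boxes on either strand: CAGATG, the symmetric CATATG and the symmetric CAGCTG. Their matches do not overlap here. The windows are chr13:56252181-56252430 (minus strand, Neurog1), chr2:79456637-79456886 (minus, Neurod1), chr1:172057597-172057846 (minus, Nhlh1), chr6:64728875-64729124 (plus, Atoh1), chr11:98329646-98329895 (minus, Neurod2) and chr10:62132840-62133089 (plus, Neurog3).
Neurog1: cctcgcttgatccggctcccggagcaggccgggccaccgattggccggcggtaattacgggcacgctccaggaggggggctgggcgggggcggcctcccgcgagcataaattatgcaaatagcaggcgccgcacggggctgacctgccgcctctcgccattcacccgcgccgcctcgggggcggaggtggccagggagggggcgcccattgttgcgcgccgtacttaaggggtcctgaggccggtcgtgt
Neurod1: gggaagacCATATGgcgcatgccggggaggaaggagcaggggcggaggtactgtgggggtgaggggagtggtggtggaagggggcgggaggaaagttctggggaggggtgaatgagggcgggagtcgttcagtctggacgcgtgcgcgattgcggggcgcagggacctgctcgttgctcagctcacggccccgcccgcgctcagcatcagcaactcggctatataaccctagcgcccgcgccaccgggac
Nhlh1: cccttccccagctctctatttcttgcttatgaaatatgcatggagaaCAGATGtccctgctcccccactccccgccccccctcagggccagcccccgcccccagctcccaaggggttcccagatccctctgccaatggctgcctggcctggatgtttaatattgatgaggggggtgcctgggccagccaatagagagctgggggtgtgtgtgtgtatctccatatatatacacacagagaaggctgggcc
Atoh1: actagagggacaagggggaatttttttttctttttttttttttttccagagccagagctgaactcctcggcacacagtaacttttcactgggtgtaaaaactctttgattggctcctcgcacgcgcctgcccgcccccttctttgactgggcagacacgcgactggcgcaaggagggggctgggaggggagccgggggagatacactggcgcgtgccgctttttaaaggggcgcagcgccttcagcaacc
Neurod2: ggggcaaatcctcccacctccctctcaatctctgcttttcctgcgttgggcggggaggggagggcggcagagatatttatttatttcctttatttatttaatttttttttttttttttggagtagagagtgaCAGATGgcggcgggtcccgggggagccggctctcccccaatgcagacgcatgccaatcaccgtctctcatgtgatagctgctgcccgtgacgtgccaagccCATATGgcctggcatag
Neurog3: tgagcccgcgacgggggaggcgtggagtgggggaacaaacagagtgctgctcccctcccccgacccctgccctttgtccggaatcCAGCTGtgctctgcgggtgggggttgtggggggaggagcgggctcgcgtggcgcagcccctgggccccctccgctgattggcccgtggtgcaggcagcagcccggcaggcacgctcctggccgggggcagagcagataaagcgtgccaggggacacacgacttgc

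Of the 9 promoter windows, 4 held at least 1 of the 3 E-boxes, and 25.2% of 21263 such windows of 17492 protein-coding genes did. Neurod1 had CATATG 242 bp upstream of the start, in a window wholly under its ATAC and H3K27ac peaks. Nhlh1 had CAGATG 203 bp upstream, with 211 of the 250 bases under ATAC and all 250 under H3K27ac. Neurod2 had CAGATG at 118 bp and CATATG at 17 bp, and Neurog3 had CAGCTG at 165 bp, but neither window held a peak of either list. The letters alone therefore did not separate the promoters with a peak from those without one. All 250 bases of the Neurog1 window were under ATAC and 177 under H3K27ac, with none of the 3 motifs. The Atoh1 window had 180 bases under ATAC and the Neurod4 window 112, again with none of them and no H3K27ac. CAGATG stood in 12.4% of all windows, CATATG in 2.91% and CAGCTG in 12.1%. At least 1 of the 3 stood in 20.2% of the windows that overlap an ATAC peak and in 31.0% of those that do not, and CATATG in 1.13% and 4.98%.

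A TATAA, searched after the sequences had been seen and on the gene's strand in the last 50 bases before the start, was present in 2 of the 9 genes, Neurog2 at 27 bp and Neurod1 at 29 bp upstream. It was present in 5.46% of all windows.

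The 9 genes fell into those with H3K27ac at the gene, namely Neurog1, Neurod1, Neurod4 and Nhlh1, and those without, namely Neurog2, Neurod2, Neurod6, Neurog3 and Atoh1. An ATAC peak lay at 7 of the 9 genes, against 70.1% of all protein-coding genes, and an H3K27ac peak at 4, against 55.5%. All 4 genes with H3K27ac at the gene also had ATAC there, a combination found at 54.8% of all genes. The members are short, from 1674 to 12103 bp, and among the 8961 genes no longer than the longest member these shares were 49.0% for ATAC, 37.2% for H3K27ac and 36.4% for both. The members' counts were thus not far from the share over all genes for either mark. Beside the genes no longer than the longest member, 7 of 9 lay above the 49.0% for ATAC, and 4 of 9 lay closer to the 37.2% for H3K27ac. These differences were not tested. Neurog2, Neurod6 and Atoh1 were open without H3K27ac at the gene, a state of 15.3% of all genes.

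The 9 regions together held 35 ATAC peaks, 10 at the genes and 25 in the flanks, and 14 H3K27ac peaks, 5 at the genes and 9 in the flanks. Of the ATAC peaks 9 were acetylated (25.7%), 4 at the genes and 5 in the flanks, and of all 43652 ATAC peaks analysed 39.6% were. Acetylated peaks of the members had a median width of 252 bp (138 to 689 bp) and the others 178 bp (102 to 439 bp), so the widths overlapped; over the whole list the medians were 365 and 165 bp. Every region held at least 1 ATAC peak, as did 78.3% of the regions of all genes, but 5 of the 9 held no H3K27ac peak at all (60.0% of all genes' regions held one). An acetylated ATAC peak lay in 4 of the 9 regions, against 57.6% of all. The other 5 each had 2 or more ATAC peaks and none acetylated, a state of 11.7% of the regions of all genes.

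**Figure D1:**
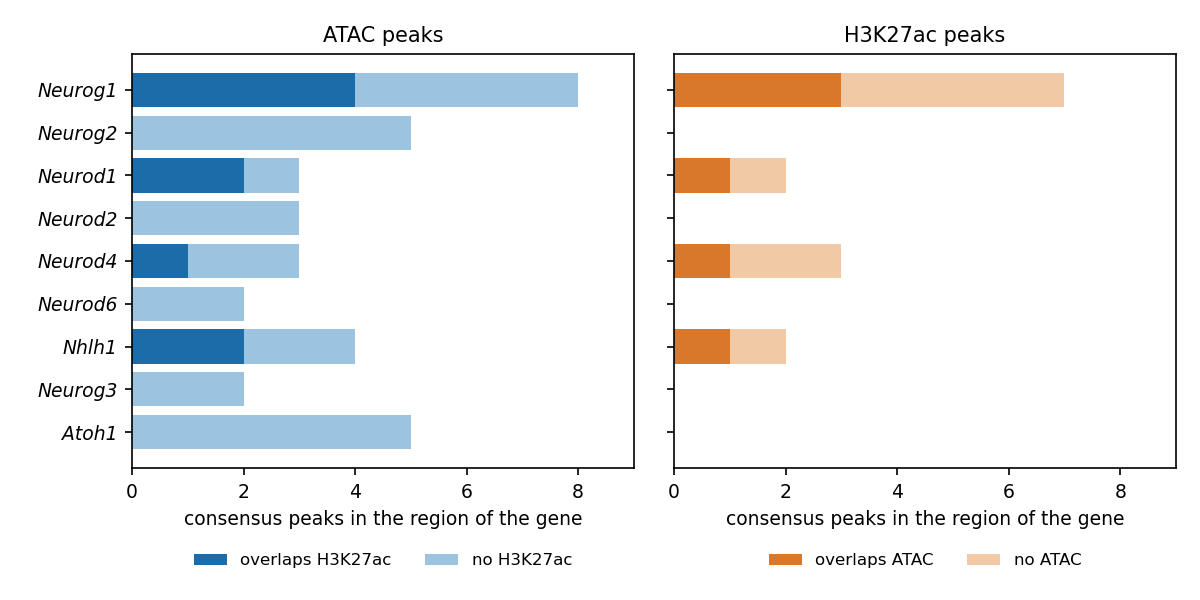
ATAC peaks (left) and H3K27ac peaks (right) in the region of each gene, with the darker part of each bar giving the peaks that overlap the other list. Neurog1 has 8 ATAC and 7 H3K27ac peaks, and Neurog2, Neurod2, Neurod6, Neurog3 and Atoh1 have ATAC peaks but no H3K27ac peak.

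The early neurogenins differed most from each other. Neurog1 (chr13:56250478-56252180, minus strand) had 8 ATAC peaks, 4 of them acetylated, and 7 H3K27ac peaks in a region of 109640 bp. Neurog2 (chr3:127632733-127635636, plus strand) had 5 ATAC peaks, none acetylated, and no H3K27ac peak in a region of 48694 bp. Regions with at least 8 ATAC peaks made up 5.04% of all genes, with at least 7 H3K27ac peaks 1.25% and with at least 4 acetylated ATAC peaks 4.13%. These shares were not matched on the length of the region. Neurog2 held more ATAC peaks per length than Neurog1, 10.3 per 100 kb against 7.3. At least the density of Neurog2 was found at 11.6% of all genes, and at least that of Neurog1 at 18.8%.

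At Neurog1, the gene of the factor tied to the later wave of DRG neurogenesis, a 573 bp ATAC peak (chr13:56252068-56252640) ran from 460 bp upstream to 112 bp downstream of the start. A 1675 bp H3K27ac peak (chr13:56250683-56252357) ran from 177 bp upstream to 1497 bp downstream and shared 290 bp with it. The mark thus covered most of this short gene, while the upstream part of the open interval lay outside it. A second H3K27ac peak of 406 bp lay 965 bases beyond the gene's far end, just inside the 1 kb limit.

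The flanks of Neurog1 held 3 acetylated open elements. The widest ATAC peak of all 9 regions, 689 bp (chr13:56221085-56221773), lay 30407 to 31095 bp downstream of the start, with a 294 bp ATAC peak (chr13:56222038-56222331) beside it. Both were wholly under 1 H3K27ac peak of 1580 bp (chr13:56220896-56222475). Upstream, a 227 bp ATAC peak (chr13:56258771-56258997) lay 6591 to 6817 bp from the start, inside a 740 bp H3K27ac peak (chr13:56258484-56259223). These 2 positions were the distal acetylated sites of Neurog1. 2 other pairs of peaks in the downstream flank came close without overlap: a 313 bp ATAC peak and a 470 bp H3K27ac peak with 17 bases between them, and a 179 bp ATAC peak and a 284 bp H3K27ac peak with 225 bases between them. The rest of the Neurog1 region held a 444 bp H3K27ac peak 8084 bp upstream and narrow ATAC peaks of 129 and 102 bp, 27386 bp upstream and 62271 bp downstream.

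Neurog2, the factor of the early wave, in which the large-diameter neurons of the TrkC and TrkB classes arise, had 2 ATAC peaks at the gene. One of 246 bp (chr3:127632608-127632853) lay 283 to 528 bp upstream of the start used here and spans the first base of the annotated gene span, which begins upstream of that start; RefSeq lists a predicted transcript for this gene beside the curated one. The other, 226 bp (chr3:127634141-127634366), lay 1005 to 1230 bp downstream of the start. The flank peaks, of 257, 167 and 212 bp, lay 7554 to 7810 bp and 6774 to 6940 bp upstream and 6799 to 7010 bp downstream. The 5 ATAC peaks therefore sat within 8 kb of the start, on both sides. The nearest H3K27ac peak to Neurog2 lay 78786 bases from the gene, at an end of Larp7, which encodes an RNA-binding protein of the 7SK particle.

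**Figure D2:**
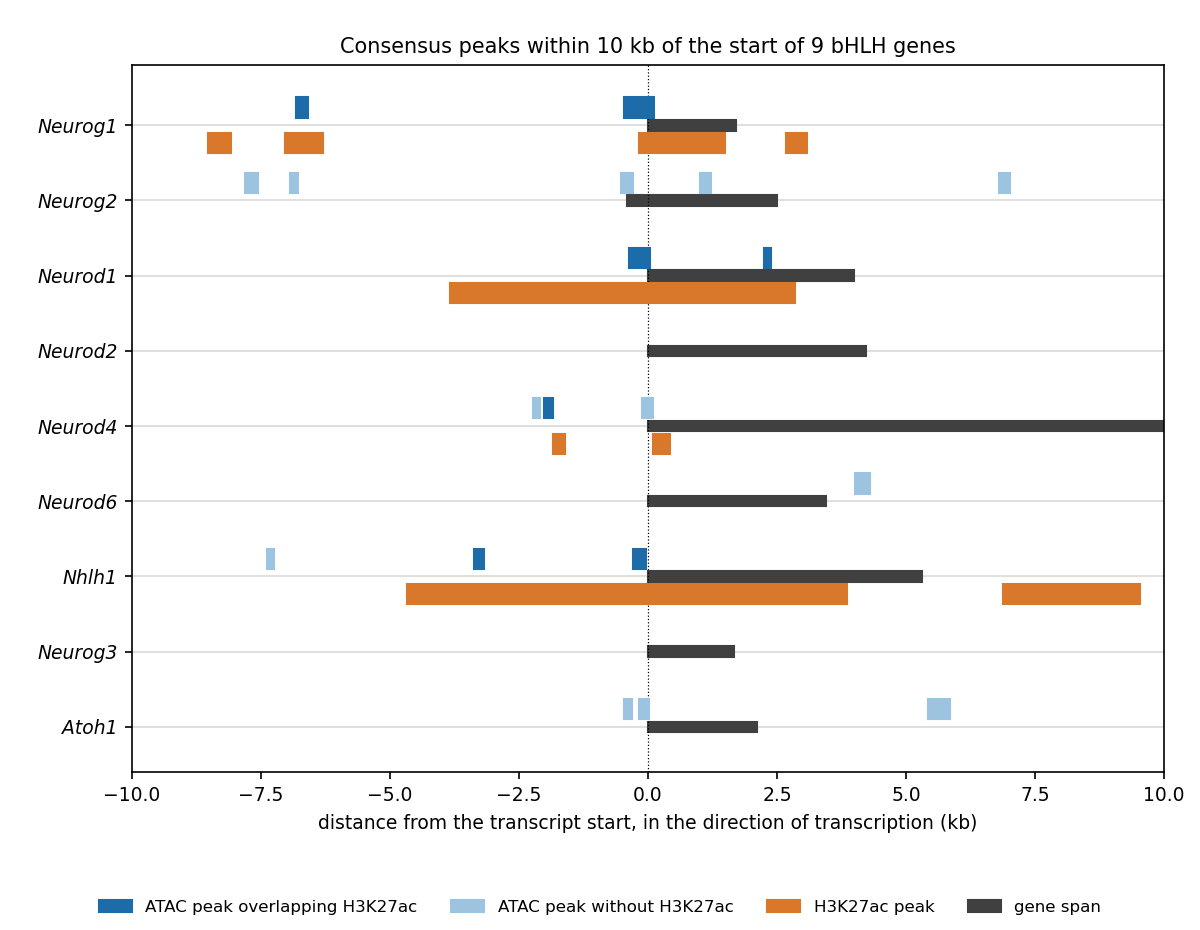
Consensus peaks within 10 kb of the transcript start (dotted line at 0) of each gene, in kb along the direction of transcription, with ATAC peaks above and H3K27ac peaks below the gene span. Neurod1 and Nhlh1 lie under the widest H3K27ac peaks, of 6688 and 8526 bp, and Neurog2, Neurod6 and Atoh1 show ATAC but no H3K27ac.

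Among the later factors, Neurod1 and Nhlh1 carried the broadest H3K27ac. Neurod1 (chr2:79452637-79456636, minus strand), an activator of neuronal differentiation genes, lay under an H3K27ac peak of 6688 bp (chr2:79453788-79460475) from 3839 bp upstream to 2848 bp downstream of the start. This was the 85th widest of 19924 H3K27ac peaks, and 0.427% of the list were at least as wide; the median width is 1036 bp. It held 2 ATAC peaks, one of 401 bp over the start (chr2:79456600-79457000) and one of 138 bp inside the gene (chr2:79454250-79454387). The flanks of Neurod1, over 100 kb long on one side before the limit, held just 1 ATAC peak of 160 bp and 1 H3K27ac peak of 572 bp, 42775 and 71788 bp upstream, which did not overlap.

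Nhlh1 (chr1:172052292-172057596, minus strand), a bHLH gene switched on as neurons leave the cell cycle, lay under an H3K27ac peak of 8526 bp (chr1:172053739-172062264), the 36th widest of the list. It ran from 4668 bp upstream to 3857 bp downstream of the start. An ATAC peak of 252 bp lay 40 to 291 bp upstream of the start (chr1:172057636-172057887) and another of 191 bp lay 3182 to 3372 bp upstream (chr1:172060778-172060968), both inside it. A further H3K27ac peak of 2646 bp (chr1:172048065-172050710) stood 1581 bases beyond the far end of the gene, outside the 1 kb limit, with no ATAC peak in it. At 38694 bp the region of Nhlh1 was the shortest of the 9, and it held 4 ATAC peaks, 10.3 per 100 kb. Its other ATAC peaks, of 136 and 140 bp, lay 10444 bp downstream and 7242 bp upstream of the start and were not acetylated. Neither this broad peak nor that of Neurod1 reached a neighbouring gene.

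H3K27ac covered 66.5% of the Nhlh1 span with 1 kb on each side, 64.2% of that of Neurod1 and 46.2% of that of Neurog1. At least as much was covered at 0.429%, 0.503% and 1.34% of all genes, and at 1.0%, 1.18% and 3.18% of the genes no longer than the longest member. These 3 genes therefore stood in the upper end of the distribution, and Neurod4 did not: 2.25% of its span was covered, and 40.8% of all genes had at least that share.

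**Figure D3:**
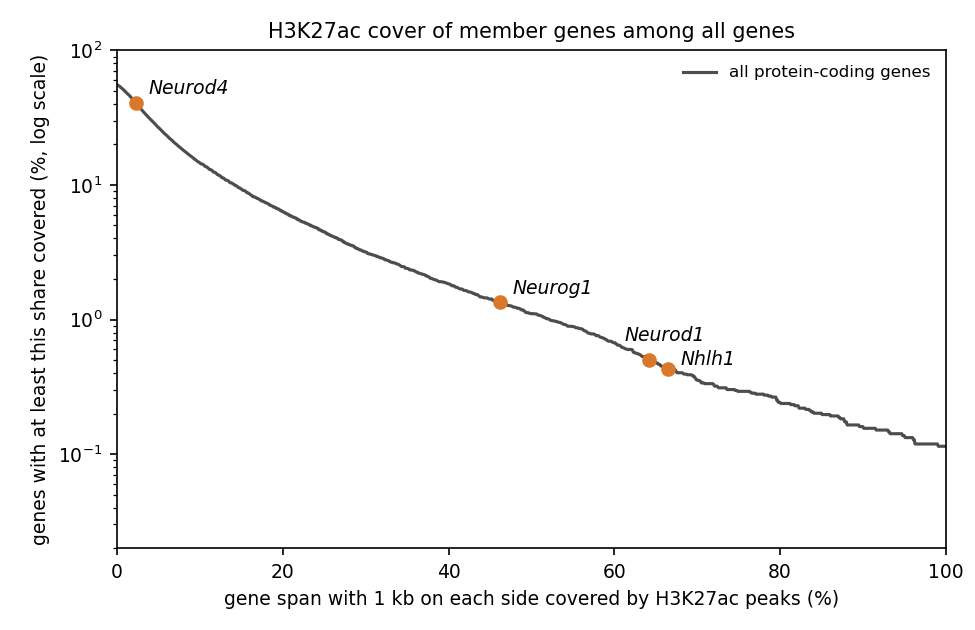
Share of genes (%, log scale) in which H3K27ac peaks cover at least a given percentage of the gene span with 1 kb on each side. The points are the members with H3K27ac at the gene: Neurod4 at 2.25%, Neurog1 at 46.2%, Neurod1 at 64.2% and Nhlh1 at 66.5%.

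Neurod4 (chr10:130268152-130280254, minus strand), a factor that acts beside Neurod1 in early neurons, showed small peaks that met at their edges. A 210 bp ATAC peak (chr10:130280157-130280366) lay over the start, and a 317 bp H3K27ac peak (chr10:130279837-130280153) began 101 bp downstream of the start. With 3 bases between them, this ATAC peak did not count as acetylated. About 2 kb upstream, a 175 bp ATAC peak (chr10:130282087-130282261) shared 15 bp with a 245 bp H3K27ac peak (chr10:130281857-130282101), and it was the one acetylated peak of the region. A 138 bp ATAC peak further upstream (chr10:130282351-130282488) had 249 bases between it and that 245 bp H3K27ac peak. The third H3K27ac peak, of 500 bp, lay 35537 bp downstream of the start, beyond the far end of the gene, with no ATAC peak. The count of acetylated ATAC peaks at Neurod4 was 1, and it was 0 when 50% of the ATAC peak had to be covered and 3 when H3K27ac within 250 bp was enough.

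Neurod2 and Neurod6, factors of later cortical neurons, lacked H3K27ac throughout their regions. Neurod2 (chr11:98325415-98329645) had no ATAC peak at the gene and 3 in the downstream flank, of 171, 230 and 176 bp, between 33092 and 45244 bp from the start. Neurod6 (chr6:55677818-55681263) had 1 ATAC peak of 295 bp (chr6:55676963-55677257), which lay 560 bases beyond the far end of the gene and not at its start, and 1 of 115 bp 36084 bp upstream. With 2 peaks in 203446 bp, 0.983 per 100 kb, the region of Neurod6 was the most sparsely filled of the 9. The nearest H3K27ac peaks lay 28234 bases from Neurod2, at an end of Stard3, and 110072 bases from Neurod6.

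The factors of other lineages, Atoh1 and Neurog3, had ATAC peaks but no H3K27ac. Atoh1 (chr6:64729125-64731245, plus strand) had 2 ATAC peaks at its start, of 203 bp from 180 bp upstream to 22 bp downstream (chr6:64728945-64729147) and of 153 bp further upstream (chr6:64728661-64728813). Its widest, of 439 bp (chr6:64734545-64734983), began 3299 bases beyond the far end of the gene. 17.2% of all ATAC peaks were at least as wide, and it was the widest unacetylated ATAC peak of the 9 regions. As background, an enhancer that drives Atoh1 in the neural tube lies downstream of the gene; whether this peak is that enhancer was not tested. A further pair, of 258 and 165 bp, lay 70258 to 70796 bp downstream of the start. The H3K27ac peak nearest to Atoh1 was 230159 bases away, the farthest of the 9.

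Neurog3 (chr10:62133090-62134763, plus strand) had no peak of either list at the gene. Its 2 ATAC peaks, of 159 and 183 bp, lay 41578 to 41736 and 50068 to 50250 bp downstream, and the nearest H3K27ac peak was 60514 bases from the gene. Neurog3 and Neurod2 were the members without a peak at the gene, a state of 29.3% of all genes and 50.2% of those no longer than the longest member.

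**Figure D4:**
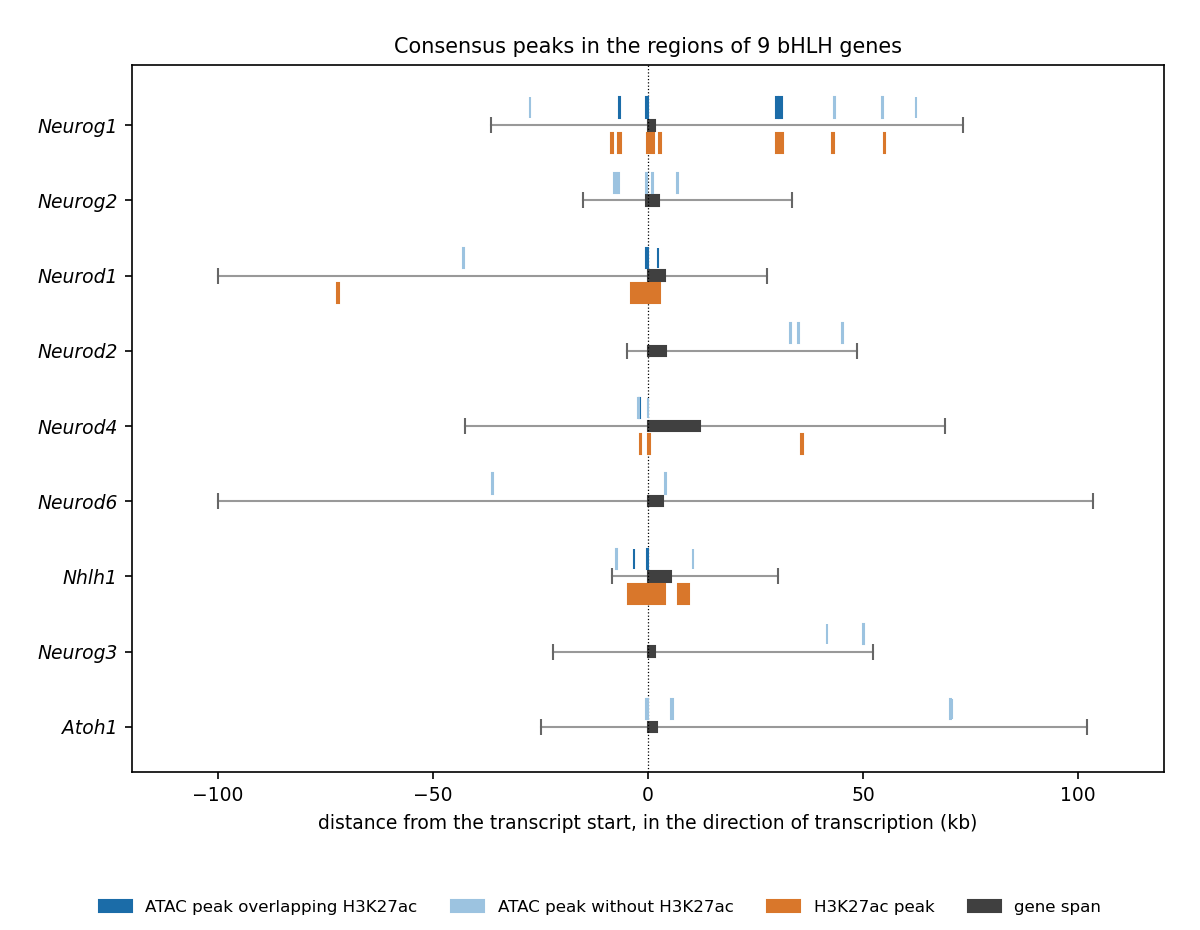
Peaks in the whole region of each gene, in kb from the transcript start along the direction of transcription, with grey lines ending at the neighbouring gene or at 100 kb; thin peaks are widened by their outline. Neurog1 has acetylated ATAC peaks on both sides of the gene, and the Neurod6 region of 203446 bp holds 2 ATAC peaks.

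Side by side, the early neurogenins had a mean of 6.5 ATAC, 3.5 H3K27ac and 2.0 acetylated ATAC peaks per gene, the later Neurod genes with Nhlh1 had 3.0, 1.4 and 1.0, and the factors of other lineages 3.5, 0 and 0. All protein-coding genes had 2.47, 1.05 and 1.02. All 7 H3K27ac peaks of the early group belonged to Neurog1, so its mean does not describe Neurog2, whose counts were those of Atoh1: 2 ATAC peaks at the gene, 3 in the flanks and no H3K27ac. In the later group, the 7 H3K27ac peaks belonged to Neurod1 (2), Neurod4 (3) and Nhlh1 (2). The groups hold 2, 5 and 2 genes, which are not replicates of a condition, and the differences between them were not tested.

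Among 47 other bHLH genes compared on the same 4 counts (ATAC and H3K27ac, at the gene and in the flanks), Neurog1 was most like Nhlh2, the close relative of Nhlh1. Nhlh2 had 1 ATAC and 1 H3K27ac peak at the gene and 6 and 5 in the flanks, a summed difference of 2, and the next, Hes1 and Tcf15, differed by 6. Neurog2 and Atoh1 both matched Olig1, a gene of oligodendrocyte and motor neuron progenitors, with a difference of 0. Neurog3 matched Hand1 and Olig3 with a difference of 0, and Neurod2 differed from the same genes by 1. Neurod6 matched Mesp1, Mesp2 and Myog with 0, Neurod4 and Nhlh1 were each nearest to Msc (1), and Neurod1 to Ascl2 and Hes6 (2), which tied with others. These counts rest on few peaks, and like counts do not place the peaks at like positions.

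The genes of E proteins, the dimer partners of the proneural factors, and of Id inhibitors were open and acetylated at the gene. Both marks at the gene were found at 54.8% of all protein-coding genes. All 3 E protein genes had both marks, with 4 acetylated ATAC peaks in the region of Tcf3, 4 at Tcf4 and 3 at Tcf12. So did all 4 Id genes, whose products bind E proteins and keep them from DNA, with 4 acetylated peaks at Id3, 4 at Id4 and 2 at Id1. Of 10 Hes and Hey genes, which encode repressors of proneural genes under Notch, 7 had both marks and Hes2, Hes3 and Helt had neither; Hes1 and Hes6 led with 2 acetylated peaks each. The median number of acetylated ATAC peaks in the region was 4 for E protein genes, 3 for Id genes and 1 for Hes and Hey genes. It was 1 over all genes. Tcf4 and Tcf12 span 344539 and 267642 bp, and no count was matched on length.

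Other tissue-specific bHLH genes were more often open than acetylated. Of 12 other neural bHLH genes, 9 had ATAC at the gene and 3 had H3K27ac: Nhlh2, Atoh8 and Bhlhe22. Olig3, Bhlhe23 and Ferd3l had no ATAC at the gene. Acetylated ATAC peaks in the region numbered 4 at Nhlh2 and 2 at Bhlhe23, and the list's median was 0. Of 18 mesodermal and blood bHLH genes, 13 had ATAC and 3 had H3K27ac at the gene: Twist1, Tcf15 and Msc. Myf6, Hand1, Hand2, Tcf21 and Msgn1 had no ATAC there, and the median was again 0. The shares of all genes, 70.1% for ATAC and 55.5% for H3K27ac, place both lists near all genes for ATAC and below them for H3K27ac. Most genes of both lists are short, and among the 8961 genes no longer than the longest member the shares were 49.0% and 37.2%. Both lists lay above that share for ATAC and below it for H3K27ac. These differences were not tested.

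Genes known as targets of neurogenins had ATAC at the gene in 16 of 16 cases and H3K27ac in 15. Over all protein-coding genes the shares were 70.1% and 55.5%. The target without H3K27ac at the gene was Dll4, a Notch ligand gene best known in blood vessels. Neurod1, Neurod4 and Nhlh1 are on this list; without them the counts were 13 and 12 of 13. Ebf2 had 7 acetylated ATAC peaks in its region, and Cbfa2t3, which encodes a corepressor, and Ebf3 had 5 each. Dll1, the ligand gene that proneural factors switch on, had 3. Ebf2 and Ebf3 are long, and no count was matched on length.

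Of the 10 genes set to check the labelled cell type, 9 had both marks at the gene, against 54.8% of all protein-coding genes. Among the 9 were Pou4f1, Isl1, Ntrk3 (which encodes TrkC) and Runx3. Ntrk3 and Elavl4 span 401049 and 148203 bp, and no count was matched on length. Runx3 had 12 acetylated ATAC peaks in its region, Elavl4 10 and Pou4f1 6. The Runx3 region held 36 ATAC peaks in all, and reads of the Runx3 BAC and of the endogenous gene cannot be told apart in it. Avil, the sensory neuron gene of advillin, had no peak of either list in its region. Of 6 muscle and mesoderm markers, Twist1 and Tcf15 had H3K27ac at the gene, and Myod1, Myf5, Myog and Scx had none in their regions. Of the other mesodermal bHLH genes, Msc, a gene of muscle precursors, had 1 H3K27ac peak at the gene and 2 in the flanks, and Msgn1 had 1 in a flank. The blood genes Tal1 and Lyl1 and the spinal progenitor genes Olig1, Olig2, Olig3 and Ptf1a had none in their regions either. A peak does not measure expression, and cells of mixed stages within the sort cannot be told apart in these lists.

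**Figure D5:**
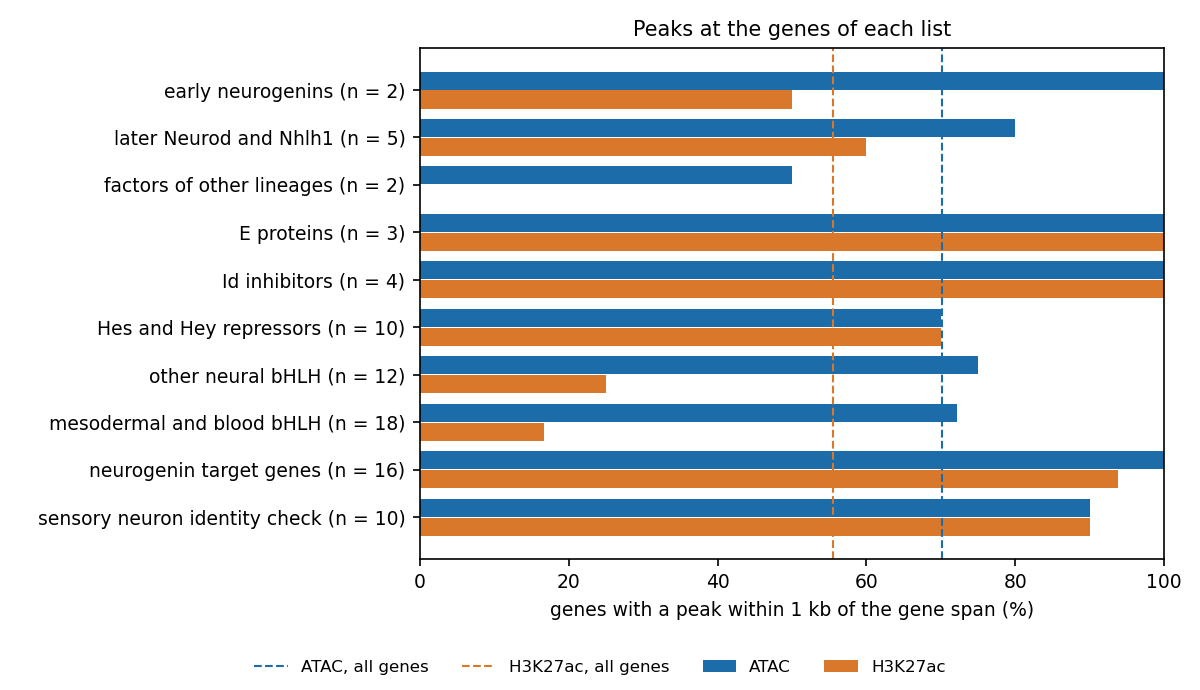
Percentage of the genes of each list with an ATAC (blue) or H3K27ac (orange) peak within 1 kb of the gene span; dashed lines give the share of all protein-coding genes, 70.1% and 55.5%. Both marks reach all E protein and Id genes, and the neural and mesodermal bHLH lists lie near the ATAC line and below the H3K27ac line.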

How the data were processed

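The submitters' processing notes name cutadapt 1.18, Bowtie2 2.3.5.1, MACS2 and bedtools and the mm10 build; thresholds and the way the replicates were joined are not given in the sources used here. The authors deposited 1 consensus peak list per assay, 43739 ATAC and 19928 H3K27ac peaks, as start and end positions in bp without a score, so no other unit was used. The 43652 ATAC and 19924 H3K27ac peaks on autosomes and sex chromosomes were kept and positions counted from 1. Per the labels, each preparation used 50000 fixed cells. The input DNA was not used here.

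Gene spans came from RefSeq GRCm38.p6, the assembly of mm10, and transcript starts from the 5′-most entry of its promoter table. Offsets count the start base as 0. A flank peak had its midpoint in the flank, and a flank was 0 bp where another protein-coding gene overlapped that end. The counting was checked on planted intervals and run in Python 3.11.15 with pandas 2.3.3. The members and lists were chosen with earlier results of these data known. Every member is named. From each other list, up to 3 genes with the most acetylated ATAC peaks are named, and the exceptions where 5 or fewer have or lack a peak; Dll1, Msgn1 and the sensory markers beyond this rule were named after their values were seen. 1 gene that this rule takes is not reported here. Up to 2 most like genes are given per member.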

Additional observations from a re-analysis of the deposited data

How the results depend on the processing

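No paired analysis was possible because each assay has 1 consensus list over its replicates, and no replicate could be left out. With the wider 50% of each list (at least 217 bp for ATAC and 1036 bp for H3K27ac), which removes peaks by construction, the 9 regions held 14 ATAC, 5 H3K27ac and 5 acetylated ATAC peaks; the early neurogenins had a mean of 4 ATAC and 1 H3K27ac peaks, the later Neurod genes with Nhlh1 0.8 ATAC, 0.6 H3K27ac and 0.4 acetylated ATAC peaks, and the factors of other lineages 1 ATAC peak. The regions of Neurod4 and Neurog3 then held no peak of either list, and Neurog1, Neurod1 and Nhlh1 were the 3 members with H3K27ac at the gene. Flanks of at most 50 kb and 50% cover kept all totals and group means within 1.5 times. H3K27ac within 250 bp of the ATAC peak, chosen after seeing the data, did so too. Windows of 0.5 and 2.5 kb moved peaks only between the gene and its flanks. No peak lay at a neighbouring gene to be left out. These settings therefore could not change the region totals or group means. The numbers of members with ATAC or H3K27ac at the gene stayed within 1.5 times with both windows. They also did so with peaks within 1 kb of the transcript start, a setting chosen after seeing the data. With flanks of 50 kb, Neurod1 kept 1 H3K27ac and Atoh1 3 ATAC peaks. ATAC at the gene was counted for 6 members with 0.5 kb and with the start window, where Neurod6 was lost in each. The depth is unknown, and a missing peak means that none was called in the consensus, not that the region is closed or unacetylated.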

Other observations

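The CpG content of the 9 promoter windows did not follow their peaks in every case. Neurog1 had 29 CpG in the 250 bases before the start and Neurod1 had 22, and both were open and acetylated. Nhlh1 had 2, although its start lay in an 8526 bp H3K27ac peak, and Neurod4 also had 2 and was open. Neurog3 had 18, the median of the promoters that overlap an ATAC peak, and Atoh1 14, and the Neurog3 window held no peak. Neurod2 had 11, Neurog2 8 and Neurod6 3, and these windows held no peak of either list. The median was 10 over all promoters and 3 over those without ATAC. These values are given as a description, with no test.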
